A study of Caenorhabditis elegans with 6 samples.

Results

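The genes described here are 9 genes of the *C. elegans* dosage compensation machinery and *T10D4.6*, a gene whose read counts followed those of the dosage compensation gene *sdc-3* in every library. They are 10 of the 20138 genes in the deposited count table. The dosage compensation genes were taken by their known function, and the set was drawn up because *sdc-3* and *T10D4.6* were the only 2 genes past the threshold in the direction of a higher level in the libraries labelled *fmo-4* OE, for *fmo-4* overexpression. For these 2 genes the difference between the groups is therefore a description with no test, while the other 8 were tested across all genes. All 10 genes passed the filter on low counts, as did 13413 genes in total.

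The study compared mRNA of whole day 1 adults of the wild type (WT) with that of a strain labelled *fmo-4* OE, with 3 libraries labelled as biological replicates in each group. *fmo-4* encodes a flavin-containing monooxygenase that the study linked to longevity, and the comparison asks which transcripts differ when it is overexpressed. Both groups were grown from egg to adulthood on a concentrated lawn of *E. coli* OP50 and received no treatment. The study made ubiquitous and hypodermal *fmo-4* OE strains from multicopy arrays, and the labels do not say which of them was sequenced.

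Hermaphrodites of *C. elegans* carry a pair of X chromosomes and males only one, and the dosage compensation complex evens this out by lowering transcription from both X chromosomes of the hermaphrodite. SDC-2, with SDC-3 and DPY-30, brings a specialised condensin to recruitment sites along the X chromosome, and the demethylase DPY-21 changes histone H4 methylation there. The same SDC proteins repress the male-determining gene *her-1*, so the complex joins dosage compensation to sex determination. Most of its subunits are also supplied by the mother to the embryo, and several act in mitotic and meiotic condensins as well.

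Library totals ranged from 17576872 to 24943501 reads. Values are given as normalized counts, meaning reads scaled to a common library size after edgeR's TMM factors. The gene named in the labels did not read higher in the group named for it. *fmo-4* gave normalized counts of 528, 449 and 462 in WT libraries 1, 2 and 3, and of 425, 446 and 351 in libraries 1, 2 and 3 labelled *fmo-4* OE. All 3 of the latter were below every WT library, with a log2 fold change of −0.24 ± 0.18 (SE, n = 3 per group; edgeR quasi-likelihood test with Benjamini-Hochberg adjustment over all genes tested, adjusted p = 0.947). The study itself reported, from quantitative PCR on RNA of day 1 adults, *fmo-4* levels many times those of WT in both its ubiquitous and its hypodermal strain. The reason for this difference from the read counts was not tested. The group is therefore called here by its label, and every direction below sets the 3 libraries labelled *fmo-4* OE against the WT ones. The first principal component of the 6 libraries, with 43.2% of the variance, did not separate the groups, since WT 1 scored −57.9, WT 2 −16.6 and WT 3 3.5, against −23.01, 41.6 and 52.4 for *fmo-4* OE 1, 2 and 3.

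*sdc-3* encodes a zinc finger protein that acts with SDC-2 in loading the complex onto X and in repressing *her-1*. It lies at V:15039357-15048209 on the minus strand in the coordinates of the deposited table, whose genome build is not given in the sources used here. Its normalized counts were 433, 654 and 469.8 in the WT libraries, and 2019.9, 1670.1 and 1979 in the *fmo-4* OE libraries. The lowest *fmo-4* OE library thus stood far above the highest WT library. The group means were 519 ± 118 (SD, n = 3) and 1889.6 ± 191 (SD, n = 3), which is 3.64-fold or 1.86 ± 0.20 (SE) on the log2 scale. In these bulk samples of whole worms a change of RNA per cell and a change in the number of cells of a type cannot be told apart. Over the 12 alternative settings and left-out libraries the log2 fold change of *sdc-3* stayed between 1.74 and 2.06.

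*T10D4.6*, at II:3119331-3123184 on the plus strand, is given no role here. Its normalized counts were 423, 630.5 and 426 in WT and 1981, 1646 and 1924 in *fmo-4* OE. WT 2 was the highest WT library and *fmo-4* OE 2 the lowest *fmo-4* OE library, as for *sdc-3*. The means of 493 ± 118.9 and 1850.1 ± 179 (SD, n = 3 each) are 3.75-fold apart, or 1.91 ± 0.20 (SE) on the log2 scale, with a range of 1.80 to 2.12 over the alternatives. At an adjusted p under 0.05, 2 of the 13413 genes tested (0.0149%) read higher and 4 (0.0298%) read lower. Both higher genes were these, chosen for it, so their adjusted p values here and below describe that choice and test neither gene. Each had an adjusted p of 0.0310 in edgeR. They were inside the threshold in 4 of the 12 alternatives (RLE factors, DESeq2, no filter and without WT 2) and outside it in the other 8, among them without any one of WT 1, WT 3 and *fmo-4* OE 1, 2 and 3, where the adjusted p of *sdc-3* ran from 0.0589 to 0.212. The next gene outside the threshold, *C18D4.6*, had an adjusted p of 0.0689 in edgeR and a log2 fold change of 1.74. Its adjusted p is given only to show where the threshold fell.

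**Figure D1:**
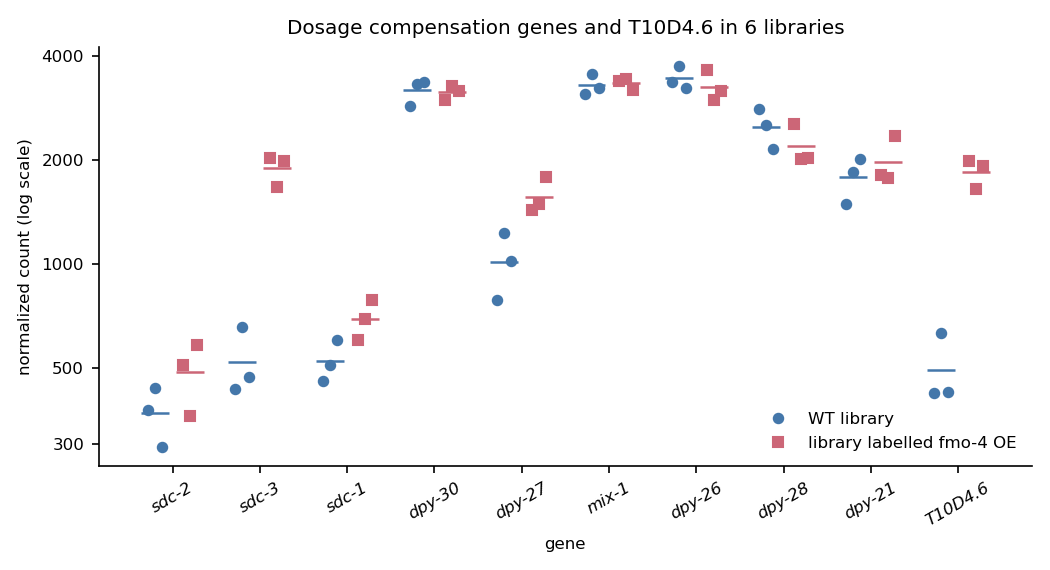
Normalized counts (log axis) of the 10 genes in each library, with circles for WT, squares for the libraries labelled *fmo-4* OE and a line at each group mean. *sdc-3* and *T10D4.6* lie between 423 and 654 in WT and between 1646 and 2019.9 in *fmo-4* OE, while the groups of 7 other genes overlap and those of *dpy-27* do not.

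The other proteins that recruit the complex to X gave smaller differences, none of which passed the test. *sdc-2*, at X:11522713-11533450, encodes the hermaphrodite-specific protein that starts assembly on X. Its normalized counts were 379, 437 and 296 in WT and 509.8, 363 and 581 in *fmo-4* OE. The groups overlapped because *fmo-4* OE 2 fell below both WT 1 and WT 2. The log2 fold change of *sdc-2* was 0.39 ± 0.24 (SE), with a 95% interval of −0.17 to 0.95 and an adjusted p of 0.865 in the edgeR test.

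*sdc-1*, at X:16275769-16282448, encodes another zinc finger protein of the complex. It gave 459, 509.6 and 603 in WT and 600.1, 690.3 and 783 in *fmo-4* OE. The groups just touched, with WT 3 slightly above *fmo-4* OE 1. The log2 fold change was 0.40 ± 0.18 (SE, 95% interval −0.03 to 0.83), with an edgeR p of 0.0619 before and 0.697 after adjustment.

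*dpy-30*, at V:12191315-12192177, encodes a small protein shared between this complex and the COMPASS methyltransferases of histone H3. Its normalized counts of 2866, 3321 and 3355 in WT and 2986, 3271 and 3172 in *fmo-4* OE lay within one range. The log2 fold change of −0.02 ± 0.12 (SE) changed sign in 5 of the 12 alternatives, and its 95% interval ran from −0.29 to 0.26. A fold change of the size seen for *sdc-3* lies outside this interval, as it does for every other gene of the complex tested. Since *sdc-3* was chosen for its high value, this is a description and no test of a difference between the genes.

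Among the condensin subunits of the set, *dpy-27* gave the largest difference, which did not pass the adjusted threshold. DPY-27 is the SMC subunit found only in the dosage compensation condensin, where it takes the place that SMC-4 has in the other condensins. *dpy-27*, at III:3813553-3819679, gave 785, 1225 and 1021 in WT and 1429, 1491 and 1780.4 in *fmo-4* OE. Every *fmo-4* OE library was above every WT library, and the means of 1010.2 ± 220.3 and 1567 ± 188 (SD, n = 3 each) were 1.55-fold apart.

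The log2 fold change of *dpy-27* was 0.63 ± 0.19 (SE, 95% interval 0.19 to 1.08), with an edgeR p of 0.0112 before adjustment and 0.583 after it, so *dpy-27* did not pass the threshold. It was the only one of the 8 genes with an unadjusted p under 0.05 and the only one whose groups did not overlap. Over all genes tested, 4.32% were higher at an unadjusted p under 0.05 and 3.01% lower, and 5.85% were higher and 5.26% lower without overlap, and 1 of 8 is the smallest count above 0, so it is not read as a result about the complex. The unadjusted p of *dpy-27* stayed under 0.05 in all 12 alternatives, from 0.00464 to 0.0468, while its adjusted p ranged from 0.143 to 1.00 and passed in none.

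None of the remaining condensin subunits of the set passed the test. *mix-1*, at II:10824295-10841823, encodes the SMC partner that all worm condensins share, and gave 3106, 3542 and 3235 in WT against 3385, 3422 and 3195 in *fmo-4* OE. Its log2 fold change was 0.02 ± 0.11 (SE, 95% interval −0.24 to 0.28; edgeR adjusted p = 0.981), negative without WT 1 or without *fmo-4* OE 2. In the deposited coordinates *mix-1* is also the only one of the 10 genes that overlaps others, namely *M106.8* and *VM106R.1*, which had at most 556 reads in any library.

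*dpy-26*, at IV:12445982-12451294, encodes the kleisin that closes the condensin ring. It gave 3365, 3739.8 and 3234 in WT and 3639.7, 2988 and 3156 in *fmo-4* OE. These groups overlapped throughout, with a log2 fold change of −0.08 ± 0.13 (SE, 95% interval −0.38 to 0.22; edgeR adjusted p = 0.956).

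*dpy-28*, at III:10763147-10777342, encodes a HEAT repeat subunit that also limits crossovers in meiosis. Its normalized counts were 2799, 2531 and 2155 in WT and 2538, 2009 and 2030.4 in *fmo-4* OE. The means fell on the opposite side from *dpy-27*, but the groups overlapped and the log2 fold change of −0.19 ± 0.15 (SE, 95% interval −0.54 to 0.17) had an edgeR adjusted p of 0.956.

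*dpy-21*, at V:17936760-17949028, encodes the Jumonji demethylase that turns dimethylated into monomethylated lysine 20 of histone H4 on X. It gave 1486, 1848 and 2017 in WT and 1808, 1778 and 2341 in *fmo-4* OE. WT 1 and *fmo-4* OE 3 stood at the ends of one overlapping range, with a log2 fold change of 0.15 ± 0.17 (SE, 95% interval −0.25 to 0.55; edgeR adjusted p = 0.956).

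Among the 8 genes tested, 5 had a log2 fold change above 0 and 3 below, with a median of 0.08 beside −0.02 over all genes tested, and 0 passed the adjusted threshold in edgeR (1 at an unadjusted p under 0.05). None passed it in DESeq2 or in any other alternative.

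Per kilobase of the deposited gene length, the levels of the 10 genes in WT fell in a wide order. *dpy-30* led with 3888 ± 334 normalized counts per kilobase (SD, n = 3), followed by *dpy-26* at 858 ± 65.4, *mix-1* at 744 ± 50.6, *dpy-28* at 508 ± 65.9 and *dpy-21* at 355 ± 54.04. The other genes were lower. *dpy-27* had 212 ± 46.2 and *T10D4.6* 198 ± 47.7, and these were the only neighbours in the order whose WT values overlapped. *sdc-1* followed with 139 ± 19.4, *sdc-3* with 79.0 ± 18.0 and *sdc-2* with 40.1 ± 7.70. In *fmo-4* OE the level of *T10D4.6* was 742 ± 71.9 per kilobase, moving from place 7 to place 4, and that of *sdc-3* was 288 ± 29.1, moving from place 9 to place 8.

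*T10D4.6* and *sdc-3* lie on different chromosomes and have unlike lengths of 2495 and 6567 bases, yet their raw read numbers were close in every library. In WT 1, 2 and 3 the reads on *T10D4.6* were 418, 558 and 484, and those on *sdc-3* 428, 579 and 534. In *fmo-4* OE 1, 2 and 3 they were 1733, 1757 and 2016 on *T10D4.6*, and 1767, 1783 and 2074 on *sdc-3*. *T10D4.6* always had the lower number, by 10 to 58 reads.

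The ratio of *T10D4.6* to *sdc-3* reads was 0.977, 0.964 and 0.906 in WT and 0.981, 0.985 and 0.972 in *fmo-4* OE. WT 3 was the lowest of the 6 and the others lay within a narrow band. As a log2 ratio the mean was −0.08 ± 0.06 in WT and −0.03 ± 0.01 in *fmo-4* OE (SD, n = 3 each). *T10D4.6* is in the set because its counts follow those of *sdc-3*, so this closeness is a description with no test.

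Of the 20137 other genes in the table, *T10D4.6* was the only one within 10% of *sdc-3* in all 6 libraries, with a largest departure of 9.36%. The next closest gene departed by up to 52.2%. Whether the 2 genes share sequence, so that the same reads could be counted for both, was not tested here. The values of *sdc-3* and *T10D4.6* are therefore not counted as 2 separate results.

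The genes beside each of them gave a check of the surroundings, with 5 genes on either side in the deposited order. Around *sdc-3*, 4 of 10 neighbours had enough reads to be tested, and none had an unadjusted p under 0.05. The most abundant of them, *mcm-3*, which encodes a subunit of the replicative helicase, gave 8309, 7790.3 and 6986 in WT and 8788, 7744 and 6786 in *fmo-4* OE. Its groups overlapped fully, and its log2 fold change was 0.01 ± 0.14 (SE, 95% interval −0.32 to 0.34). The nearest genes on both sides, *C25D7.2* and *fbxa-82*, were too low to be tested.

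Around *T10D4.6*, 5 of 10 neighbours were tested and 0 passed the adjusted threshold in edgeR (2 at an unadjusted p under 0.05, 1 higher and 1 lower, beside 4.32% and 3.01% of all genes tested) or in DESeq2. Over the genes around both, the count at an unadjusted p under 0.05 was 3 under DESeq2 and ran from 0 without WT 3 or without *fmo-4* OE 2 to 4 without WT 2. The gene directly downstream on the same strand, *srh-71*, with 321 bases between the 2, belongs to a family of chemoreceptor genes. It gave normalized counts of 5.06, 11.3 and 1.76 in WT and 20.6, 22.5 and 20.04 in *fmo-4* OE. Though low, all 3 *fmo-4* OE values were above all WT values, and the log2 fold change of 1.82 ± 0.62 (SE) was near that of *T10D4.6*, with an edgeR p of 0.0193 before and 0.583 after adjustment. Both genes lie on the plus strand, so reads that run past the end of *T10D4.6* and reads of *srh-71* cannot be told apart in these counts. On the other side *clec-123*, a C-type lectin gene, gave 101, 12.4 and 74.8 in WT and 20.6, 29.0 and 18.1 in *fmo-4* OE. WT 2 lay below the *fmo-4* OE range here, and the log2 fold change was −1.47 ± 0.67 (SE, edgeR adjusted p = 0.695).

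**Figure D2:**
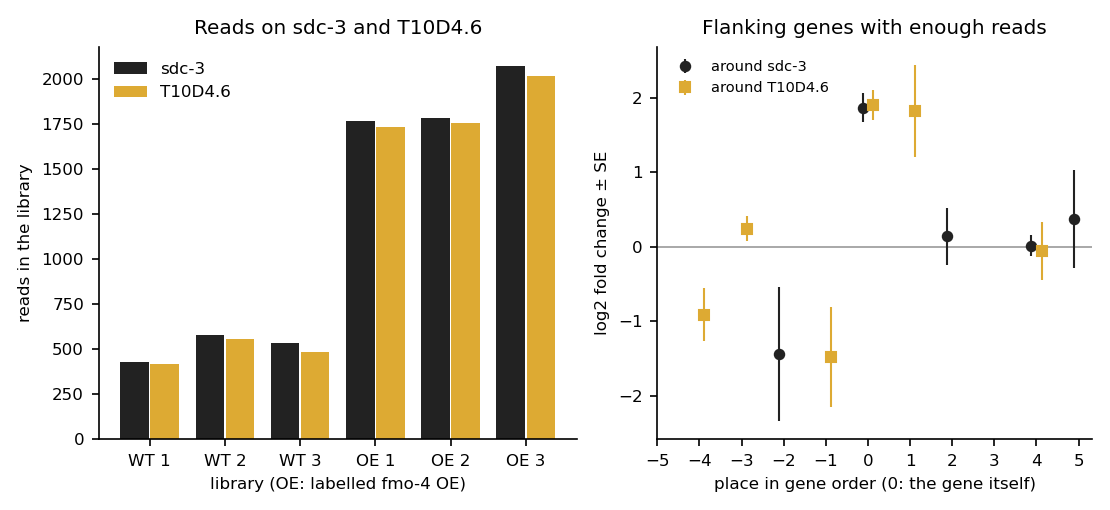
Left, reads on *sdc-3* (dark bars) and *T10D4.6* (light bars) in each library, from 418 to 579 in WT and from 1733 to 2074 in *fmo-4* OE. Right, log2 fold changes with SE of *sdc-3* and *T10D4.6* (place 0) and of the tested genes within 5 places on either side, where *srh-71* at place 1 beside *T10D4.6* has 1.82.

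The genes outside the set whose pattern over the 6 libraries was most like that of *sdc-3*, among genes with a mean normalized count of at least 50, were *T05H10.4*, *fbxb-7*, *W06A11.4*, *tbx-33* and *C18D4.6*. Their Pearson correlations with *sdc-3* on log2 normalized counts were 0.995, 0.995, 0.988, 0.986 and 0.984 over n = 6 libraries, below the 0.999 of *T10D4.6*. Within the set, *dpy-27* had the next highest correlation with *sdc-3* at 0.91, followed by *sdc-1* at 0.76 and *sdc-2* at 0.69, while *dpy-28* was lowest at −0.48. These values describe likeness alone, since with 2 groups of libraries any gene that differs between them correlates with *sdc-3*.

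The like genes differed in the size of their change. *C18D4.6* went from 70.9, 72.3 and 65.1 in WT to 240.1, 220.1 and 236 in *fmo-4* OE, and *W06A11.4* from 86.0, 102 and 88.9 to 332, 246 and 259.5. *fbxb-7*, of the F-box gene family, went from 104, 115 and 105 to 226, 202 and 221. These are log2 fold changes of 1.74 ± 0.21, 1.60 ± 0.22 and 1.00 ± 0.20 (SE). Since these genes were picked for a pattern like that of *sdc-3*, their values are given with no test. *T05H10.4* and *tbx-33*, a T-box transcription factor gene, differed by only 0.31 ± 0.12 and 0.23 ± 0.20 on the log2 scale.

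The wider pathway was described from 6 lists with 44 genes, of which 42 were tested. At an adjusted p under 0.05 in edgeR 0 of them passed, and 0 passed in DESeq2. At an unadjusted p under 0.05, 2 were higher and 0 lower, beside 4.32% and 3.01% of all genes tested. Their median log2 fold change was −0.01, beside −0.02 over all genes tested. Of the 42 genes, 5 were higher without overlap and 1 lower, against 5.85% and 5.26% of all genes tested.

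The condensin subunits outside the set gave no call. CAPG-1 is a further subunit of the dosage compensation condensin, which it shares with condensin I, and *capg-1* gave 5350.1, 4351 and 3316 in WT and 4669, 3284 and 3555 in *fmo-4* OE. *smc-4*, the counterpart of *dpy-27* in the other condensins, gave 7117, 6395 and 6859.7 in WT and 6775, 6249.6 and 6327 in *fmo-4* OE. The 5 genes of this list ranged from −0.18 to 0.09 on the log2 scale, with a median of −0.07, and none had an unadjusted p under 0.05. The 8 tested cohesin genes ranged from −0.20 to 0.37 with a median of −0.04, again with none under 0.05.

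The genes of chromatin modification that work beside the complex showed no call either. The 6 COMPASS subunits, partners of DPY-30, had a median log2 fold change of −0.0030 and ranged from −0.13 to 0.28. The list that held the histone H4 lysine 20 methyltransferases *set-1* and *set-4*, the histone H3 lysine 9 methyltransferases *met-2* and *set-25* and the nuclear anchor gene *cec-4* had a median of 0.12 and a range of −0.10 to 0.54. Without WT 3 the median of these 5 genes was 0.39.

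The list with the highest median, 0.31, except without WT 3, where it was 0.26 beside 0.39 for the list above, was that of the X-signal and autosomal-signal elements, which read the number of X chromosomes in the early embryo, and their target *xol-1*. Of 6 genes tested, 5 were above 0 and 1 was higher at an unadjusted p under 0.05. Over all genes tested these shares were 6334 of 13413 and 4.32%, and over X-linked genes, which 4 of the 6 are, 56.1% and 6.62%. The one gene was *fox-1*, an RNA-binding X-signal element, with 284, 336 and 388 in WT and 394, 506 and 708 in *fmo-4* OE. Its groups were separated by a narrow gap, and the log2 fold change was 0.67 ± 0.25 (SE), with an edgeR p of 0.0294 before and 0.597 after adjustment.

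*xol-1*, the switch that promotes male fate when expressed in the embryo, was low, at 47.6, 41.8 and 36.95 in WT and 53.7, 75.9 and 52.5 in *fmo-4* OE. Its values did not overlap either, with a log2 fold change of 0.53 ± 0.30 (SE, edgeR adjusted p = 0.818). Of the 6 genes tested in this list, 2 were higher without overlap, beside 5.85% of all genes tested. *sex-1*, a nuclear receptor X-signal element, gave 754, 999 and 559.5 in WT and 1077, 824 and 1032 in *fmo-4* OE, where the groups overlapped and the log2 fold change was 0.34 ± 0.23 (SE; edgeR adjusted p = 0.893).

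In the sex determination list of 12 genes, *her-1* was the one gene with an unadjusted p under 0.05, and 2 genes were higher without overlap. Over all genes tested 4.32% were higher at this p, and 5.85% were higher without overlap. HER-1 is the secreted protein that sets male fate, and its gene is the known autosomal target of SDC-1, SDC-2 and SDC-3. *her-1* gave normalized counts of 14.2, 13.6 and 9.68 in WT and 18.3, 29.97 and 26.7 in *fmo-4* OE. All *fmo-4* OE values were above all WT values at this low level, and the log2 fold change was 1.01 ± 0.41 (SE), with an edgeR p of 0.0402 before and 0.642 after adjustment. The median over the 12 genes was −0.05, with 3 above 0 and 9 below.

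**Figure D3:**
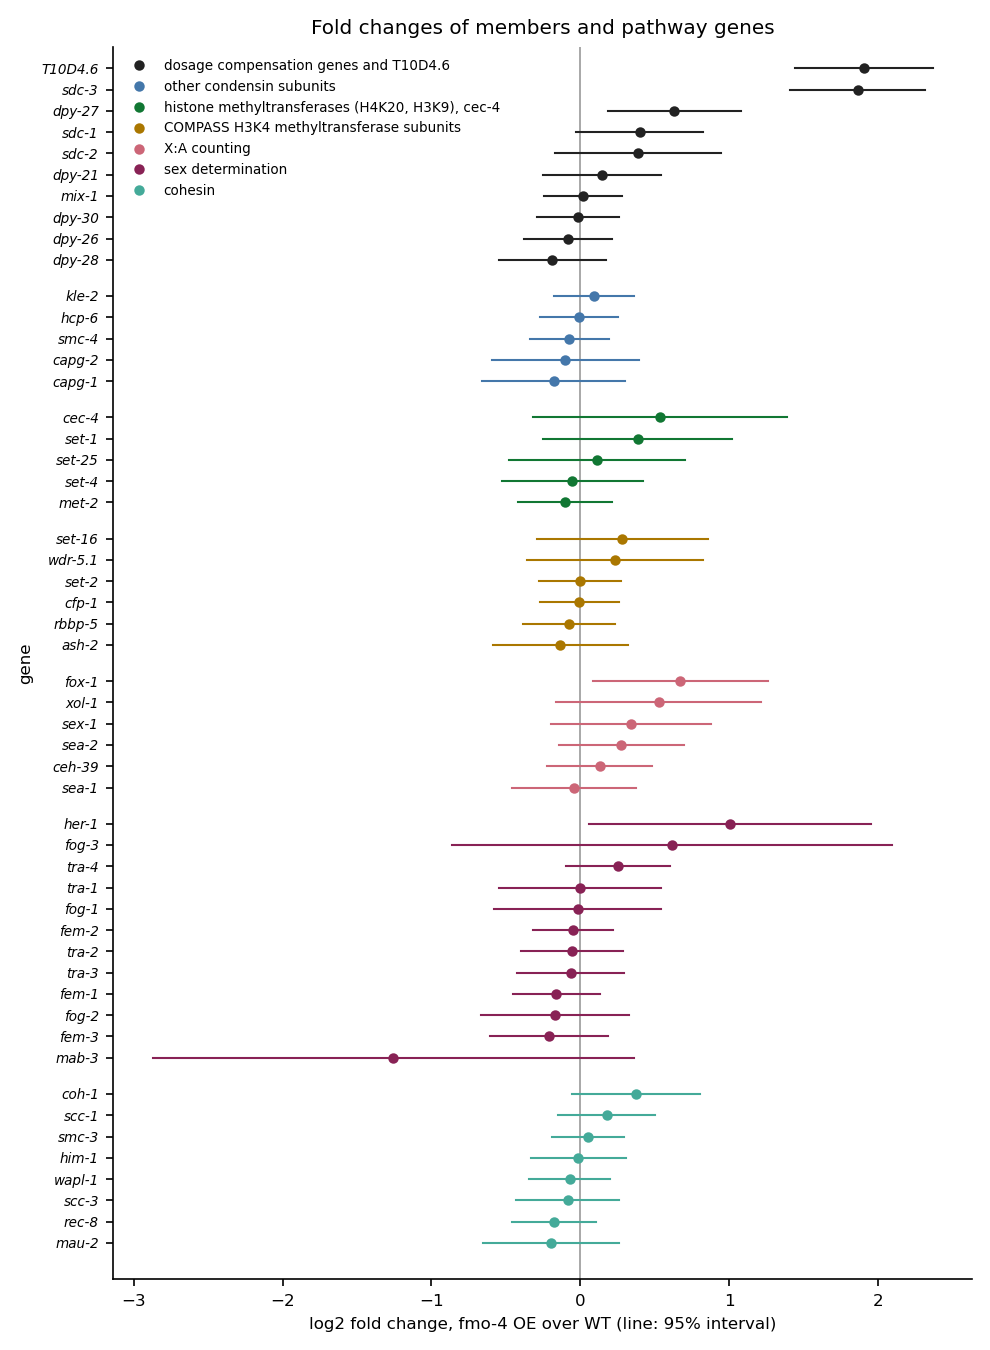
Log2 fold changes of *fmo-4* OE over WT (horizontal axis) for the 10 genes and the 42 tested pathway genes, one row per gene, coloured by list, with lines for the 95% interval. Only the intervals of *T10D4.6* and *sdc-3*, which were chosen on this comparison, and of *dpy-27*, *fox-1* and *her-1* lie wholly above 0.

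Since the complex acts on X, the X-linked genes were compared with the autosomal ones. The median log2 fold change was 0.06 over 1963 X-linked genes and −0.03 over 11427 autosomal genes, a difference of 0.08, without the 10 genes above. Of the X-linked genes 56.1% were above 0, against 45.7% of the autosomal ones. At an unadjusted p under 0.05, 6.62% of the X-linked genes were higher and 2.45% lower, against 3.91% and 3.12% of the autosomal genes.

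Genes of one library are not independent, so the comparison was made over libraries, on the median deviation of X-linked genes from their mean over libraries less that of autosomal genes. These log2 values were −0.11, 0.09 and −0.10 in WT 1, 2 and 3, and 0.0022, 0.018 and 0.12 in *fmo-4* OE 1, 2 and 3. WT 2 stood with the *fmo-4* OE libraries, above 2 of them, so that the groups overlapped. The means of −0.04 ± 0.11 and 0.05 ± 0.06 (SD, n = 3 each) differed by 0.09, less than the spread among the WT libraries (exact two-sided permutation test, p = 0.3, with 0.1 the smallest possible). The difference between the X and autosomal medians was 0.16 without WT 2, 0.05 without WT 1 and 0.04 without *fmo-4* OE 3, and above 0 in all 13 alternatives run for it.

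Each autosome was set against the other autosomes in the same way. The largest shift between group means was that of chromosome II at 0.05, and the values of chromosome II were higher and those of chromosome IV lower in all *fmo-4* OE libraries than in all WT libraries. X therefore had the largest shift of the 6 chromosomes and also the widest spread among WT libraries.

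**Figure D4:**
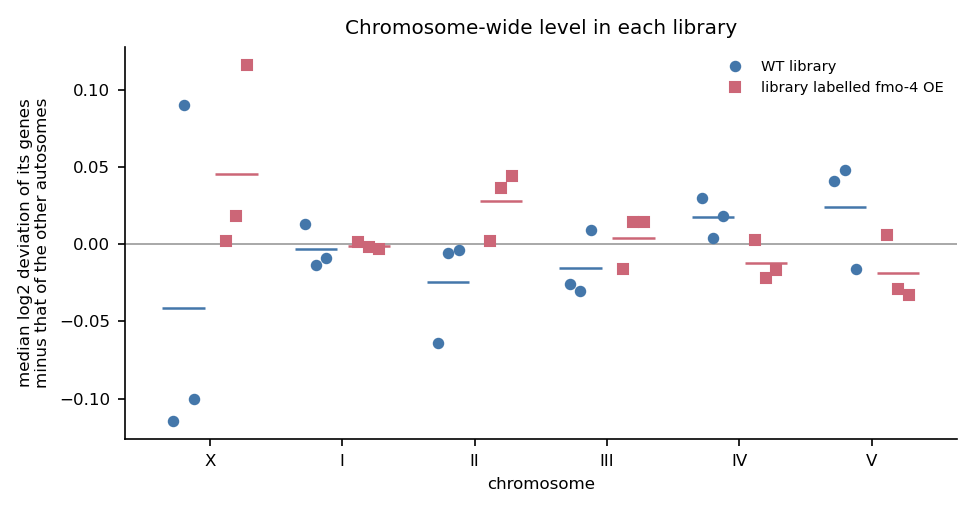
Median log2 deviation of each chromosome's genes minus that of the other autosomes in each library, with circles for WT, squares for libraries labelled *fmo-4* OE and a line at each group mean. On X the WT libraries run from −0.11 to 0.09 and the *fmo-4* OE libraries from 0.0022 to 0.12.

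Markers of the germ line, where many of these genes are expressed, had overlapping sums. The summed normalized counts of 16 oocyte and germline markers were between 273199 and 287310 in WT and between 254107 and 282873 in *fmo-4* OE. No marker had an unadjusted p under 0.05, and only 3 of the 16 were above 0, beside 6334 of 13413 genes tested. Sperm markers split the WT libraries. Their sum over 14 genes was 4695 in WT 1 and 4131 in WT 3 but 679 in WT 2, and between 753 and 974 in *fmo-4* OE. Of 13 tested, 0 were above 0 and 11 were lower at an unadjusted p under 0.05, beside 3.01% of all genes tested. None passed the adjusted threshold in edgeR.

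WT 1 and WT 3 were also the libraries with the lowest X-linked values and the lowest *sdc-3* and *T10D4.6*, although *sdc-3* in WT 2, at 654, was still far below every *fmo-4* OE library. The intestine was the one tissue whose summed markers did not overlap, at 924939 to 1085840 in WT and 756319 to 893309 in *fmo-4* OE over 10 genes, of which 2 were above 0 and 1 was lower at an unadjusted p under 0.05. The sum over 11 hypodermal markers ranged from 45109 to 82050.1 in WT and from 41856 to 71382 in *fmo-4* OE, with 8 of 9 tested above 0 and 4 higher at an unadjusted p under 0.05. That of 12 early embryonic genes ranged from 1344 to 1909 in WT and from 1512 to 1694 in *fmo-4* OE, with 5 of 6 tested above 0 and 2 higher at an unadjusted p under 0.05. No marker of these 3 lists passed the adjusted threshold in edgeR. For comparison with these lists and those below, 6334 of the 13413 genes tested were above 0. At the unadjusted threshold, 4.32% of them passed upward and 3.01% downward. Lower without overlap were 5.26% of single genes, a share that does not apply directly to the intestine sum. Of 8 male markers 7 were in the table, with a sum of 129 to 239 in WT and 133 to 257 in *fmo-4* OE. Of the 3 tested, 2 were above 0 and 1 was higher at an unadjusted p under 0.05. The latter is *her-1*, already given above, and *mab-3* of this list is also in the sex determination list. The sums of 8 muscle markers (65106 to 77165 in WT, 57110 to 69863 in *fmo-4* OE) overlapped, with 2 of 8 above 0. Those of 8 neuron markers (6413 to 7185 in WT, 6144 to 6815 in *fmo-4* OE) also overlapped, with 4 of 8 above 0 and 1 higher at an unadjusted p under 0.05. The part of these tissues in the values of the dosage compensation genes was not tested.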

How the data were processed

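RNA of whole day 1 adults was sequenced after poly-A selection. Per the submitters' processing notes the tools were fastp, HISAT2, StringTie and featureCounts, with no version, and the build, annotation and counting strand are not given in the sources used here. The authors deposited whole-number read counts per gene, which were used as deposited with the gene length in bases. The authors' own comparison columns (fold changes, p-values), and 66 further columns with values of single libraries, were not used. Gene names were matched to WormBase and RefSeq tables (19845 of 20138 genes to WormBase).

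Counts were tested with edgeR 4.0.16 in R 4.3.3 (TMM factors, default filter on low counts, robust quasi-likelihood test, Benjamini-Hochberg adjustment over 13413 genes), with WT against *fmo-4* OE, n = 3 libraries each and no covariate. Nothing beyond the labels says that replicates came from separate cultures, so p-values measure the spread between these libraries. A pseudocount of 0.5 was added to normalized counts for log2 values. The fit was also run on counts simulated under its own model, to check the estimated fold changes. That run says nothing about the calls in these libraries. Intervals are 95% and over libraries. DESeq2 1.42.0 and the other alternatives are given in the closing section. Named genes were all 10 members, the pathway lists, 5 flanking genes a side, *fmo-4* and the 5 genes most like *sdc-3*; each list is summarised, with single genes of it named by role or p. The members and lists were chosen with earlier results of these data known.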

Additional observations from a re-analysis of the deposited data

How the results depend on the processing

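The log2 fold changes of *sdc-3*, *T10D4.6* and *dpy-27* and the X to autosome difference kept their direction in all alternatives run, while *sdc-3* and *T10D4.6* were inside the adjusted threshold in only 4 of 12. *dpy-30*, at −0.02, turned to 0.019 with no filter beyond 1 count in total and to 0.014 with at least 10 counts in every library, and ran from −0.098 to 0.039 with one library left out (above 0 without WT 2, WT 3 or *fmo-4* OE 1). *mix-1*, at 0.017, ran from −0.034 to 0.069 with one library left out (below 0 without WT 1 or *fmo-4* OE 2). The count of genes higher at an adjusted p under 0.05, 2 in edgeR, was 57 with DESeq2, 4 with no filter, 0 with library size alone, 0 with at least 10 counts in every library, and 0 to 51 with one library left out, highest without WT 2. The count of lower genes, 4, was 68 with DESeq2, 0 with at least 10 counts in every library and 0 to 80 with one library left out, again highest without WT 2. None of the 8 tested genes of the complex passed in any of these. At an unadjusted p under 0.05, 1 of the 8 was higher, and 2 (*dpy-27* and *sdc-1*) with library size alone, with at least 10 counts in every library and with the replicate block, and 1 to 2 with one library left out. The pathway genes higher at an unadjusted p under 0.05 were 2, with 1 under DESeq2 and 0 to 4 with one library left out, and those lower were 0, with 0 to 1. The median of the list with *set-1* and *cec-4* was between 0.018 and 0.39 with one library left out, highest without WT 3.

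Libraries with the same replicate number did not deviate together throughout (correlations of 0.428, −0.309 and 0.356 for numbers 1, 2 and 3). With 3 libraries per group these values cannot show whether the numbers pair the libraries, so a fit with the replicate number as a block was also run. With the replicate block *dpy-27* was 0.65 (adjusted p = 0.342), and 2 genes were higher and 3 lower over all genes, while *sdc-3* and *T10D4.6* had an adjusted p of 0.0599. The cause of these changes was not tested.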

Other observations

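The X to autosome difference was also read at separate levels of expression. The difference between the median log2 fold changes of X-linked and autosomal genes was 0.07 for genes with a mean normalized count under 50 (566 X-linked), 0.02 from 50 to 200 (558 X-linked), 0.08 from 200 to 1000 (607 X-linked) and 0.04 at 1000 or more (232 X-linked), and in each class the values of the libraries overlapped between the groups.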
